A study of Mus musculus with 29 samples.

Results

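Elastic fibres let the wall of the aorta stretch and recoil with every heartbeat. Their core is crosslinked elastin, which is laid down on a scaffold of fibrillin microfibrils. Fibulins and latent TGF-beta binding proteins bring the elastin monomer to the microfibril and to the crosslinking enzymes, and in the aorta most of this matrix is made by vascular smooth muscle cells around birth and during growth, with little renewal in the adult. The genes described here are 10 core components of this fibre: elastin (Eln), the microfibril genes Fbn1, Mfap2, Mfap4 and Mfap5, the interface protein Emilin1, the fibulins Fbln5 and Efemp2, and the latent TGF-beta binding proteins Ltbp4 and Ltbp1. They were chosen by symbol from a written list, and each symbol matched 1 of the 56748 genes in the count table.

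Bulk mRNA sequencing was performed on the aortic arch of Ercc1Δ/− mice, which lack much of the ERCC1 DNA repair protein, and of their wild-type (WT, Ercc1 +/+) littermates, all of them F1 hybrids of C57BL6J and FVB. Mice were fed ad libitum (AL) until 6 or 22 weeks of age, or were put on dietary restriction (DR) from week 7, reaching 30% from week 9, and studied at 22 weeks. Each library came from 1 mouse, with 5 WT and 5 Ercc1Δ/− mice at 6 weeks AL, 4 and 4 at 22 weeks AL, and 5 and 5 at 22 weeks DR, after the study left out 1 WT AL female of 22 weeks, sample 003. Both sexes were used, 17 males and 11 females, and the 22-week WT AL group kept only 1 female, sample 018. The Ercc1 defect is present in every tissue of these mice from conception, and the arch was sequenced whole, so the values are those of media, adventitia and attached tissue together.

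Totals per library ran from 921167 to 9616382 gene counts, and depth and mitochondrial share moved with genotype at 22 weeks. On AL, Ercc1Δ/− libraries held 1294980 to 3855444 counts and WT libraries 3903589 to 9616382, with no overlap, and 5.37 to 5.96% of the Ercc1Δ/− counts were mitochondrial against 2.47 to 3.72% in WT. On DR the totals were 921167 to 2572523 and 2660422 to 6124471, again without overlap, and the mitochondrial shares of 4.04 to 9.22% and 2.88 to 5.12% overlapped. The part of the mitochondrial share in the results was not tested, and results at equal depth are given beside the counts of called genes. Ercc1 itself was 101.4 ± 33.6 normalized counts in WT and 41.8 ± 9.17 in Ercc1Δ/− mice at 6 weeks (SD, n = 5 each), 115 ± 8.65 and 58.9 ± 7.34 at 22 weeks AL (n = 4 each), and 114 ± 14.6 and 57 ± 23.6 under DR (n = 5 each). It was called lower in Ercc1Δ/− mice in all 3 genotype comparisons (edgeR, adjusted p = 0.000336, 0.00275 and 0.000549). The single WT and Ercc1Δ/− values overlapped at 6 weeks. Normalized counts here are counts divided by library size and edgeR's TMM factor and scaled to the mean library of 3703241 counts. A gene was called a DEG when its adjusted p was at most 0.05 over the 12353 genes tested and it differed by at least 1.2-fold, with no fold limit for interactions.

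Stretches of 250 bases just before a transcription start are shown for members that were lower in Ercc1Δ/− mice at 22 weeks on both diets. RefSeq windows (build GRCm38.p6) were found for 7 of the 10 genes, and not for Eln, Mfap4 and Mfap5. Of these, 5 genes had a window with at most 30 bases inside annotated exons of the gene, which was required for printing. Sequences run 5′ to 3′ on the gene's strand, with GRCm39 coordinates from an exact match, and capitals mark matches to GGGCGG, the letters of the Sp1 motif, on either strand.
Ltbp4, chr7:27033089-27033338, minus strand: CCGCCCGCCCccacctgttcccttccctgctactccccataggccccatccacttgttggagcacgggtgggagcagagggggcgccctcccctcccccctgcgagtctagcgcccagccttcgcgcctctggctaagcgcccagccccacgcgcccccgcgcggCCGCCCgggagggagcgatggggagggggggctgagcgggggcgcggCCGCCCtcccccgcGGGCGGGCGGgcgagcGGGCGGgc
Ltbp1, chr17:75485526-75485775, plus strand: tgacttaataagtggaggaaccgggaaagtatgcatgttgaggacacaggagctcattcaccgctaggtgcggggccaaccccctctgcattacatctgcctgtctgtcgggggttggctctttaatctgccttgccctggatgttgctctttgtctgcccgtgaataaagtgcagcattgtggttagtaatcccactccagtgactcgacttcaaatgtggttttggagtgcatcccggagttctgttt
Fbln5, chr12:101784744-101784993, minus strand: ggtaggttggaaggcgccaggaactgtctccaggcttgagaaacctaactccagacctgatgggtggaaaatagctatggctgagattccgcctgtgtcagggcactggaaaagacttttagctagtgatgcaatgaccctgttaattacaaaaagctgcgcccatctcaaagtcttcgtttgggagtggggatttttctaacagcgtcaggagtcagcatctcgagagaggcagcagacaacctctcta
The window of Ltbp4 held 7 matches to GGGCGG, some of them overlapping, and those of Ltbp1 and Fbln5 held 0. Over all 32851 such windows of mouse genes, 32.7% held at least 1. None of the 3 windows held TATAAA (the TATA box, in 12.4% of all windows), CATTCC (TEAD, 12.6%), TGANTCA (AP-1, 6.75%) or a CArG box (1.47%), each searched on both strands. The Ltbp4 and Ltbp1 windows end at starts -50 and -29 bases from the start of the main annotated transcript, and that of Fbln5 at an inner start, 686 bases downstream of it. Another Fbln5 window ends closer, 51 bases downstream of the main start, and does hold matches to GGGCGG. It was not printed because 51 of its bases lie in exons, above the limit of 30.

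The plot of normalized counts by group shows all members in every sample.

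**Figure D1:**
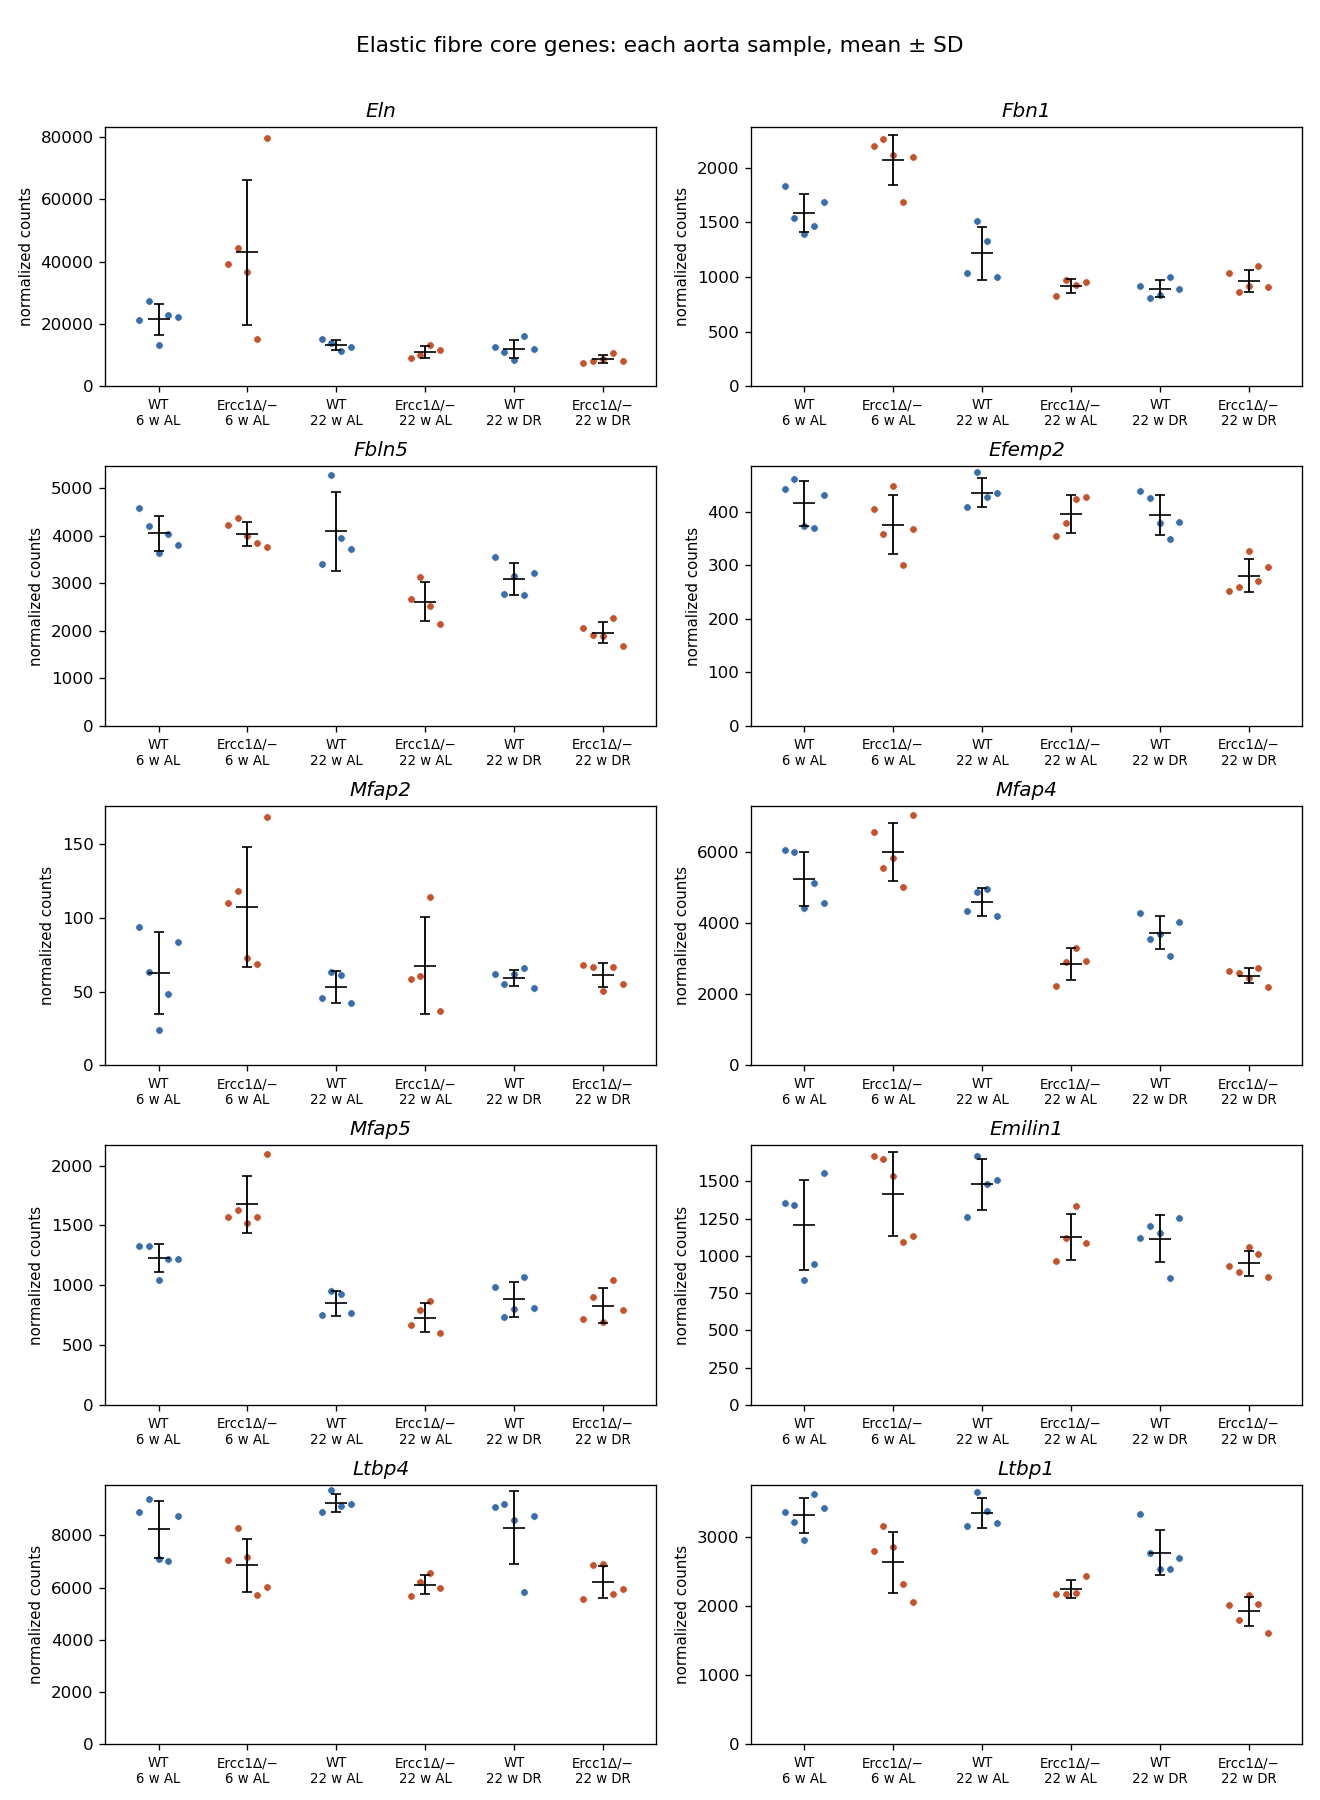
Normalized counts (vertical axis, from 0) of the 10 elastic fibre core genes in each aorta sample, by genotype, age and diet (horizontal axis), with WT in blue and Ercc1Δ/− in orange. Bars are the group mean ± SD with 4 or 5 mice per group. Eln spans 7407 to 79646 and is highest and most scattered in Ercc1Δ/− mice at 6 weeks, while Fbln5, Mfap4, Ltbp4 and Ltbp1 sit lower in Ercc1Δ/− than in WT mice at 22 weeks AL.

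All 10 genes passed the filter on low counts. Per kilobase of exon, averaged over the 6 group means, the levels were 2213 normalized counts for Eln, 1772 for Mfap4, 993 for Ltbp4, 454 for Fbln5, 252 for Ltbp1, 218 for Emilin1, 149 for Mfap5, 105 for Fbn1, 70.4 for Efemp2 and 19.7 for Mfap2. Elastin and Mfap4 thus headed the order, and Mfap2 closed it with as few as 6 raw counts in 1 library. Reads were counted over the gene body, so exon length only approximates the length they could come from. The 10 genes together took 1.21 ± 0.178% of all gene counts in WT and 1.84 ± 0.612% in Ercc1Δ/− mice at 6 weeks (n = 5 each), 1.04 ± 0.0671% and 0.793 ± 0.0684% at 22 weeks AL (n = 4 each), and 0.88 ± 0.0791% and 0.68 ± 0.0642% under DR (n = 5 each). Eln alone made up 62% of that pool in Ercc1Δ/− mice at 6 weeks and 36.4% in Ercc1Δ/− mice on DR.

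**Figure D2:**
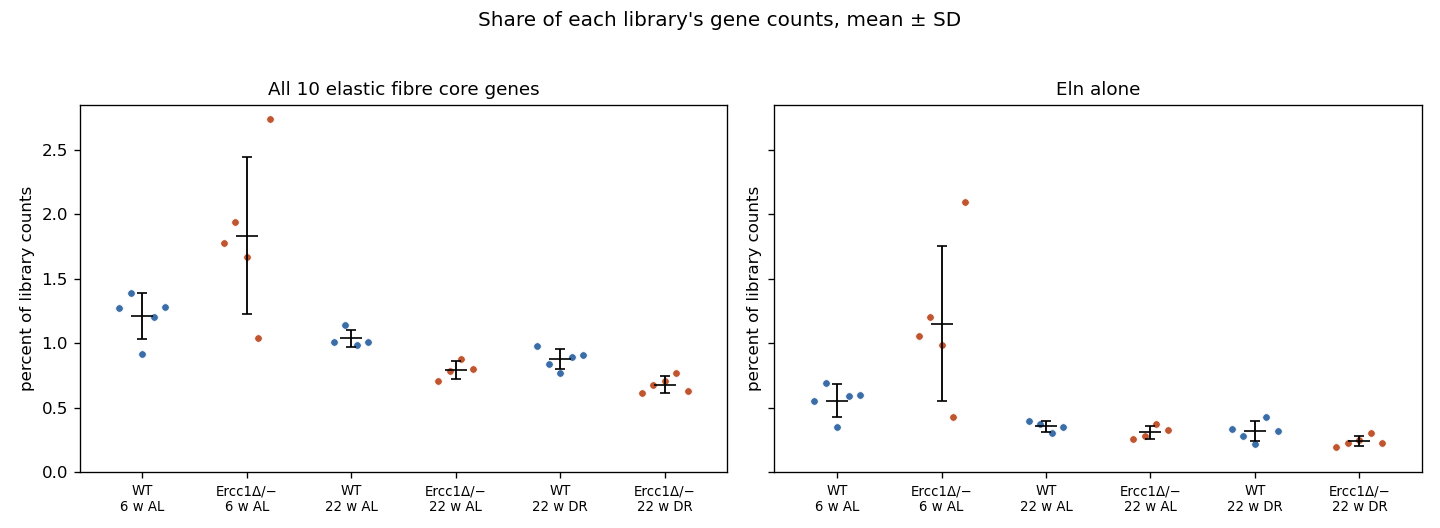
Percent of each library's gene counts (vertical axis) taken by the 10 elastic fibre core genes (left) and by Eln alone (right), by group, with the mean ± SD of 4 or 5 mice. The share was highest in Ercc1Δ/− mice at 6 weeks, from 1.04 to 2.74%, and in Ercc1Δ/− mice on DR no sample exceeded 0.773%.

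Members called in each comparison are set beside the share of all tested genes that were called. Between genotypes at 6 weeks AL, 1 of the 10 was higher in Ercc1Δ/− mice (Mfap5), against 0.575% of all genes, and 0 were lower, against 1.13%. Between genotypes at 22 weeks AL, 5 of 10 were lower in Ercc1Δ/− mice (Fbn1, Fbln5, Mfap4, Ltbp4 and Ltbp1), against 6.16% of all genes, and 0 were higher, against 5.87%. On DR, 5 of 10 were lower in Ercc1Δ/− mice (Fbln5, Efemp2, Mfap4, Ltbp4 and Ltbp1), against 7.03%, and 0 were higher, against 5.93%. The comparisons at 22 weeks thus had 4 members in common, Fbln5, Mfap4, Ltbp4 and Ltbp1, and neither called Mfap5. With every library thinned to 921167 counts, the same 5 members were called at 22 weeks AL and the same 5 on DR.

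From 6 to 22 weeks on AL, 5 of 10 fell in Ercc1Δ/− mice (Eln, Fbn1, Fbln5, Mfap4 and Mfap5), against 2.55% of all genes, and 0 rose, against 2.11%. In WT mice 0 of 10 were called over the same time (edgeR), against 0.235% of all genes in either direction. At an unadjusted p under 0.05 were 3 of 10, beside 1069 of 12353 genes, and DESeq2 called 1 (Mfap5, lower). The genotypes differed in this change, by the interaction term, for 3 of 10 (Fbn1, Fbln5 and Mfap4), each time more negative for Ercc1Δ/−, against 0.47% of all genes. With DR, 1 of 10 was called lower in WT mice (Fbn1), against 0.955%, and 1 of 10 in Ercc1Δ/− mice (Efemp2), against 0.996%. Fold changes with diet were below 0 for 8 of 10 members in WT mice, beside 5867 of 12353 genes. In Ercc1Δ/− mice this was so for 7 of 10, beside 6179 genes. An unadjusted p under 0.05 (edgeR) was reached by 5 of 10 in WT and 4 of 10 in Ercc1Δ/− mice, beside 1584 and 1848 genes. The interaction of genotype and diet was called for 0 of 10 (edgeR), against 0.0971% of all genes, and for 0 by DESeq2. At an unadjusted p under 0.05 (edgeR) were 2 of 10, beside 1077 of 12353 genes.

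Each AL group at 22 weeks enters several of these comparisons, so the comparisons share samples and are not independent. The genotype comparisons on AL and on DR came from different fits, each with its own estimate of the spread. Calls and intervals on the diets are therefore not on an equal footing. The median log2 fold change of the 10 members was 0.22 at 6 weeks and -0.40 at 22 weeks AL between genotypes, and -0.44 on DR, where the medians of all tested genes were 0.02, 0.03 and 0.00. It was -0.68 with age in Ercc1Δ/− mice and -0.09 in WT mice, with medians over all genes of 0.01 and -0.00. With diet the median of the 10 members was -0.212 in WT and -0.195 in Ercc1Δ/− mice, with medians over all genes of 0.010 and -0.000. In bulk tissue, fewer cells of a type and less RNA per cell cannot be told apart, here and in all results that follow.

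**Figure D3:**
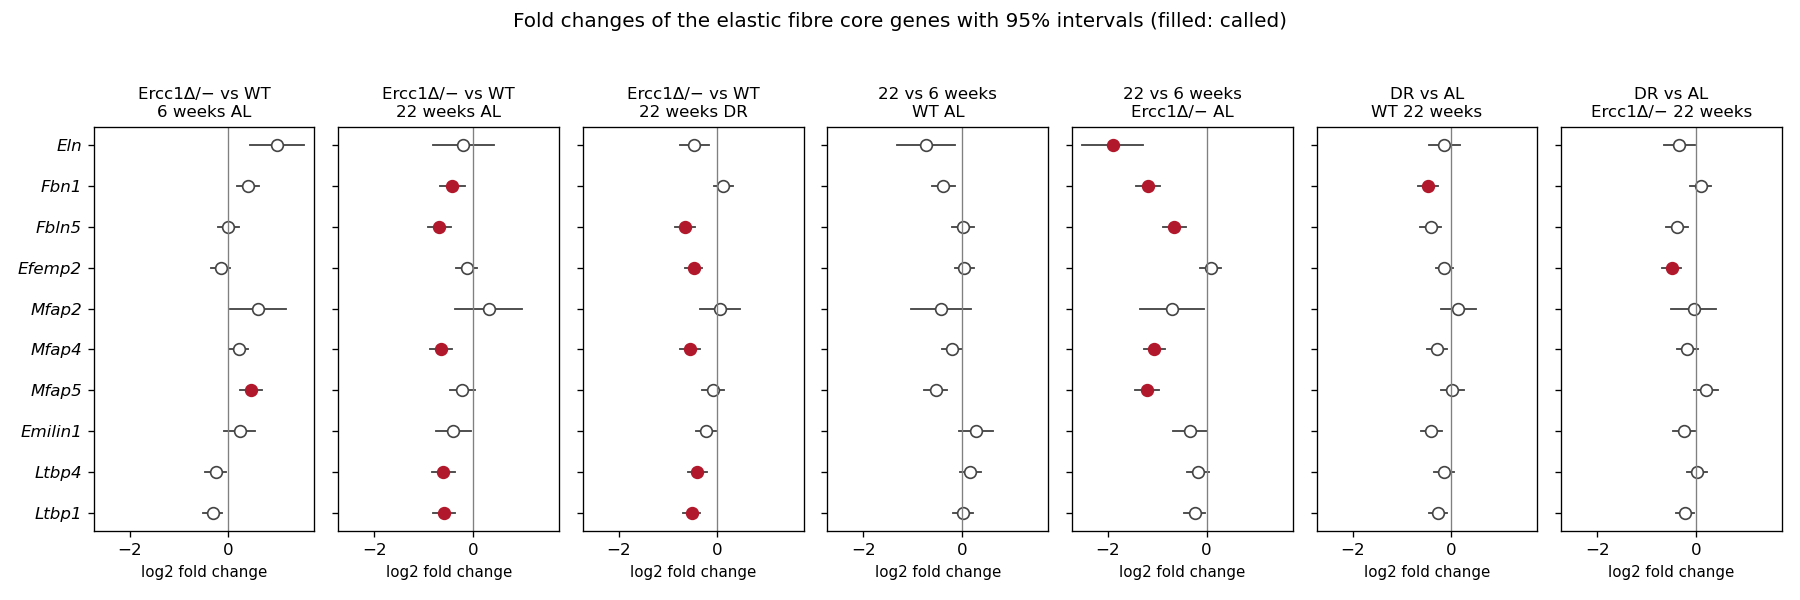
Log2 fold change (horizontal axis) of each elastic fibre core gene (rows) in 7 comparisons (panels), with normal 95% intervals from the edgeR fit. The intervals are narrower than the F test implies. Filled points are called genes. Between genotypes, Fbln5, Mfap4, Ltbp4 and Ltbp1 lie left of 0 at 22 weeks on both diets, and with age in Ercc1Δ/− mice Eln lies furthest left, at -1.91.

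Elastin (ENSMUSG00000029675, chr5:134731445-134776322) encodes the monomer of the rubber-like core of the fibre. At 6 weeks its normalized counts in the 5 WT samples were 13433, 21227, 22415, 22992 and 27467. The 5 Ercc1Δ/− samples at that age were at 15347, 36612, 39323, 44571 and 79646. Thus 4 of 5 Ercc1Δ/− samples lay above all WT samples, with sample 027 far above the rest, and sample 023 lay within the WT range. The log2 fold change was 0.99 ± 0.28 (SE) and was not called (edgeR, adjusted p = 0.108). Without sample 023 it was 1.18 and was called (adjusted p = 0.00965), and DESeq2 called it with all samples (0.98, adjusted p = 0.0294).

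By 22 weeks on AL, Eln was at 11423, 12743, 13849 and 15081 in WT and at 8988, 10021, 11784 and 13389 in Ercc1Δ/− samples. The genotypes overlapped at that age, and the difference of -0.19 had an interval from -0.81 to 0.42 (edgeR, adjusted p = 0.748). From 6 to 22 weeks Eln fell in Ercc1Δ/− mice (log2 fold change -1.91 ± 0.31, edgeR, adjusted p = 0.00216), with every 22-week sample below every 6-week one. Among the 10 members this was the largest age difference, and with any 1 sample left out it stayed between -2.13 and -1.63. In WT mice the age difference was -0.72 ± 0.30 and was not called (adjusted p = 0.498), and the interaction of -1.18 ± 0.42 was not called either (adjusted p = 0.278). Without Ercc1Δ/− sample 023 the interaction was -1.42 and was called (adjusted p = 0.0319).

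On DR, Eln was at 8588, 10933, 11871, 12641 and 16224 in WT and at 7407, 8232, 8282, 8836 and 10805 in Ercc1Δ/− samples. The Ercc1Δ/− values were thus mostly below the WT ones, with an overlap, and the difference of -0.47 ± 0.15 narrowly missed the threshold (edgeR, adjusted p = 0.0508). DESeq2 called it (-0.46, adjusted p = 0.0232), and it was called by edgeR without WT sample 017 (-0.57, adjusted p = 0.00599) or Ercc1Δ/− sample 022 (-0.57, adjusted p = 0.0186). Diet differences were -0.14 ± 0.16 in WT and -0.34 ± 0.16 in Ercc1Δ/− mice (adjusted p = 0.771 and 0.338). A non-coding gene, Gm30003, lies on the opposite strand within the Eln locus.

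Fibrillin-1 (Fbn1, ENSMUSG00000027204, chr2:125142514-125349913) forms the backbone of the microfibril. It was at 1397, 1467, 1543, 1688 and 1829 normalized counts in WT and at 1683, 2093, 2115, 2201 and 2259.8 in Ercc1Δ/− samples at 6 weeks. Sample 023, the lowest of its group for Eln too, was the 1 Ercc1Δ/− sample inside the WT range, and the difference of 0.39 ± 0.11 was not called (edgeR, adjusted p = 0.0872). It was called without sample 023 (0.45, adjusted p = 0.0385) and in 1 fit of all 6 groups (0.38, adjusted p = 0.0456). At 22 weeks AL, WT samples were at 997, 1041, 1326 and 1509 and Ercc1Δ/− samples at 827.6, 926.1, 952.8 and 972.6.

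The 22-week AL groups did not overlap, and Fbn1 was called lower in Ercc1Δ/− mice (-0.41 ± 0.13, edgeR, adjusted p = 0.0379). The call was lost in 6 of 8 fits that left out 1 sample. Without WT sample 018, the only female of its group, the difference was -0.25 (adjusted p = 0.288), and with sample 003 added it was -0.32 (adjusted p = 0.193). With age Fbn1 fell in Ercc1Δ/− mice (-1.18 ± 0.12, adjusted p = 1.74e-06), and in all 9 fits that left out 1 sample. In WT mice the age difference was -0.38 ± 0.12 (adjusted p = 0.26), and the interaction of -0.81 ± 0.17 was called (adjusted p = 0.0191) but not without WT sample 018 (-0.64, adjusted p = 0.115), WT sample 020 (-0.76, 0.0525) or Ercc1Δ/− sample 004 (-0.75, 0.0634), and not with sample 003 added (-0.70, adjusted p = 0.148).

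Under DR the genotypes overlapped for Fbn1. WT samples on DR were at 809.6, 836.2, 894.5, 916.5 and 1005, and Ercc1Δ/− samples on DR at 865.6, 910.4, 913.8, 1039.7 and 1102. The WT DR samples were lower than the WT AL samples with an overlap. Fbn1 was the member called lower with DR in WT mice (-0.46 ± 0.10, edgeR, adjusted p = 0.0237). That call was lost in 4 of 9 fits that left out 1 sample, with -0.35 without WT AL sample 018 (adjusted p = 0.214). It was also lost with sample 003 added (-0.36, adjusted p = 0.213), without the sex term (adjusted p = 0.0596) and in 1 fit of all groups (adjusted p = 0.0502). In Ercc1Δ/− mice the diet difference was 0.10 ± 0.11 (adjusted p = 0.742), and the genotypes on DR differed by 0.12 ± 0.10 (adjusted p = 0.495). The difference between the diet changes, 0.56 ± 0.15 with an interval from 0.26 to 0.86, was not called (adjusted p = 0.211).

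Mfap5 (ENSMUSG00000030116, chr6:122470878-122508875) encodes MAGP-2, a small glycoprotein bound to fibrillin. Its values at 6 weeks were 1044, 1218, 1223, 1326 and 1332 in WT and 1518, 1569, 1573, 1625 and 2094 in Ercc1Δ/− samples. The groups were fully separate, and Mfap5 was the member called between genotypes at 6 weeks (0.45 ± 0.11, edgeR, adjusted p = 0.0397). The call was lost in 8 of 10 fits that left out 1 sample, with differences from 0.35 to 0.49 and adjusted p from 0.0389 to 0.141 over the 10, and with sample 003 added (0.44, adjusted p = 0.0559).

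At 22 weeks AL, Mfap5 was at 747.7, 770.3, 925.1 and 955.4 in WT and at 599.5, 665.3, 789.9 and 867.5 in Ercc1Δ/− samples. The genotypes overlapped (-0.21 ± 0.13, edgeR, adjusted p = 0.316), and both were lower than at 6 weeks with no overlap. It fell with age in Ercc1Δ/− mice (log2 fold change -1.20 ± 0.12, adjusted p = 1.51e-06), while the WT value of -0.54 ± 0.12 was not called (adjusted p = 0.0684). That WT difference was called by DESeq2 (-0.54, adjusted p = 0.00712) and by edgeR without WT sample 018 (-0.63, adjusted p = 0.0496), without the filter on low counts (adjusted p = 0.014) and with sample 003 added (adjusted p = 0.0468). The interaction was -0.67 ± 0.17 (adjusted p = 0.0787), and it was called by DESeq2 (-0.66, adjusted p = 0.0206) and without the filter (-0.70, adjusted p = 0.0168). On DR the group means were 881 ± 143 in WT and 830 ± 145 in Ercc1Δ/− mice (n = 5 each), with no call for genotype or diet.

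Mfap4 (ENSMUSG00000042436, chr11:61376212-61379727), encodes a glycoprotein that binds elastin and fibrillin and aids fibre assembly. At 6 weeks WT samples were at 4429, 4583, 5147, 6004 and 6063 and Ercc1Δ/− samples at 5025, 5549.8, 5851, 6574 and 7064. At 22 weeks AL they were at 4205, 4337, 4884 and 4973 in WT and at 2248, 2922, 2955 and 3317 in Ercc1Δ/− mice. The genotypes thus overlapped at 6 weeks (0.21 ± 0.10, edgeR, adjusted p = 0.392) and were separate at 22 weeks (-0.64 ± 0.11, adjusted p = 0.000624).

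Within Ercc1Δ/− mice Mfap4 fell with age (log2 fold change -1.06 ± 0.11, edgeR, adjusted p = 1.52e-06), against -0.20 ± 0.11 in WT mice (adjusted p = 0.626). The interaction was -0.85 ± 0.15 (adjusted p = 0.00666), and it was called in all 18 fits that left out 1 sample, from -0.91 to -0.72. On DR, values were 3070.3, 3571, 3715, 4037 and 4299.9 in WT and 2199.9, 2470.3, 2593, 2653 and 2748 in Ercc1Δ/− samples, again fully separate (-0.56 ± 0.10, adjusted p = 0.000462). Diet differences were -0.29 ± 0.10 in WT and -0.17 ± 0.11 in Ercc1Δ/− mice and were not called (adjusted p = 0.194 and 0.482).

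Mfap2 (ENSMUSG00000060572, chr4:140737729-140743295), which encodes the related microfibril protein MAGP-1, was close to the limit of the depth. Its group means ran from 53.3 ± 10.8 in WT at 22 weeks AL (n = 4) to 108 ± 40.6 in Ercc1Δ/− mice at 6 weeks (n = 5). The ranges of all 6 groups overlapped with a neighbour, and it was called in none of the comparisons. The 6-week genotype difference was 0.60 ± 0.29 (edgeR, unadjusted p = 0.0529, adjusted p = 0.398). Its normal interval, from 0.04 to 1.17, is narrower than the F test implies and does not show a difference from 0.

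Emilin1 (ENSMUSG00000029163, chr5:31070717-31078622) encodes a glycoprotein found where elastin meets the microfibril. Its group means were 1205 ± 302 in WT and 1416 ± 281 in Ercc1Δ/− mice at 6 weeks (n = 5 each), 1479 ± 170 and 1127 ± 154 at 22 weeks AL (n = 4 each), and 1116 ± 157 and 949 ± 84.7 on DR (n = 5 each). No comparison called it. The value closest to the threshold was the diet difference in WT mice, -0.41 ± 0.11 (edgeR, adjusted p = 0.0635), where the DR samples, at 849.7 to 1256, all lay below the AL samples, at 1258 to 1671. DESeq2 called that difference (-0.41, adjusted p = 0.0391).

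Fibulin-5 (Fbln5, ENSMUSG00000021186, chr12:101712556-101785429) tethers elastin to the microfibril and to cell surface integrins. At 6 weeks the group means were 4054 ± 365 in WT and 4039 ± 254 in Ercc1Δ/− mice (n = 5 each), with a difference of -0.00 ± 0.11 (edgeR, adjusted p = 0.999). At 22 weeks AL, WT samples were at 3413, 3712, 3959 and 5277 and Ercc1Δ/− samples at 2149, 2524, 2664 and 3122. The groups no longer overlapped, and the difference was -0.68 ± 0.12 (adjusted p = 0.000741), or -0.52 without WT sample 018, the highest of all samples (adjusted p = 0.0131).

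The age difference of Fbln5 in WT mice was 0.02 ± 0.11, with an interval from -0.20 to 0.25 (edgeR, adjusted p = 0.984), while in Ercc1Δ/− mice it fell (log2 fold change -0.65 ± 0.12, adjusted p = 0.00121). The interaction of -0.68 ± 0.16 was just inside the threshold (adjusted p = 0.0486) and was lost in 13 of 18 fits that left out 1 sample, with the smallest value without WT sample 018 (-0.52, adjusted p = 0.238). It was also lost with RLE size factors (adjusted p = 0.0507), without the sex term (adjusted p = 0.0711) and after thinning (adjusted p = 0.0787). On DR, WT samples were at 2759.9, 2783, 3143, 3219 and 3563 and Ercc1Δ/− samples at 1691, 1888, 1904, 2070 and 2269. The genotypes were separate on DR too (-0.66 ± 0.10, adjusted p = 0.000114). DR values were lower than AL values in both genotypes without a call, by log2 fold changes of -0.42 ± 0.11 in WT and -0.38 ± 0.11 in Ercc1Δ/− mice (adjusted p = 0.0539 and 0.0783), and DESeq2 called the WT difference (-0.42, adjusted p = 0.0289).

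Fibulin-4 (Efemp2, ENSMUSG00000024909, chr19:5523975-5532545) brings lysyl oxidase to elastin, and mice with little of it develop aortic aneurysms. On AL it differed little, with 436 ± 27.5 in WT and 396 ± 35.7 in Ercc1Δ/− mice at 22 weeks (n = 4 each) and a genotype difference of -0.12 ± 0.11 (edgeR, adjusted p = 0.516). On DR, WT samples were at 348.7, 378.7, 380.7, 426.6 and 438.9, and Ercc1Δ/− samples at 251.7, 259.7, 271.3, 297.1 and 326.2. Ercc1Δ/− samples on DR were thus below all WT samples on DR (-0.48 ± 0.09, adjusted p = 0.000684).

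They also lay below the Ercc1Δ/− AL samples, which were at 354.3, 379.2, 424 and 427.9. Efemp2 was the member called lower with DR in Ercc1Δ/− mice (-0.49 ± 0.10, edgeR, adjusted p = 0.0103), and the call held in all 9 fits that left out 1 sample. In WT mice the diet difference was -0.14 ± 0.09 (adjusted p = 0.553). The diet changes of both genotypes were not shown to differ (interaction -0.35 ± 0.13, adjusted p = 0.448). Efemp2 shares its locus with Mus81 on the opposite strand, and the strand setting of the counting was not given in the sources used here. The same limit holds for Eln, for Fbn1 (Gm9913), for Mfap4 (Mapk7) and for Mfap5 (Rimklb). A pseudogene, Gm6276, overlaps Ltbp1 on the same strand.

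Ltbp4 (ENSMUSG00000040488, chr7:27004086-27037117) stabilises the fibulins and guides elastin deposition. Its normalized counts at 6 weeks were 7011, 7104, 8754, 8875 and 9401 in WT and 5699.9, 6012, 7052, 7187 and 8283 in Ercc1Δ/− samples, an overlap with no call (-0.26 ± 0.11, edgeR, adjusted p = 0.287). At 22 weeks AL they were 8884, 9134, 9216 and 9723 in WT and 5675, 6003, 6213 and 6549.5 in Ercc1Δ/− samples. The 22-week groups were separate and tight, and Ltbp4 was called lower (-0.60 ± 0.12, adjusted p = 0.0019). On DR, WT samples were at 5827, 8580.1, 8737, 9073 and 9218 and Ercc1Δ/− samples at 5575, 5753, 5963, 6854 and 6893. A single low WT sample, 021, made the DR groups overlap, and the difference of -0.41 ± 0.10 was called (adjusted p = 0.00647).

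Ltbp1 (ENSMUSG00000001870, chr17:75312519-75699507) holds latent TGF-beta on the microfibril. Its samples were at 2948 to 3618 in WT and 2052 to 3157 in Ercc1Δ/− mice at 6 weeks, with a difference of -0.32 ± 0.10 that edgeR did not call (adjusted p = 0.124) and DESeq2 did (-0.33, adjusted p = 0.044). At 22 weeks AL, WT samples were at 3157, 3196, 3371 and 3645 and Ercc1Δ/− samples at 2175, 2176, 2189.7 and 2438. No Ercc1Δ/− sample reached the WT range, and Ltbp1 was called lower (-0.58 ± 0.11, edgeR, adjusted p = 0.00151). On DR, values were 2527, 2529, 2698, 2763 and 3331 in WT and 1615, 1802, 2007, 2029.9 and 2156 in Ercc1Δ/− samples, again separate (-0.52 ± 0.09, adjusted p = 0.000259). Within Ercc1Δ/− mice all DR samples lay below all AL samples. Diet differences of Ltbp1, -0.270 ± 0.093 in WT and -0.221 ± 0.095 in Ercc1Δ/− mice, were not called (edgeR, adjusted p = 0.176 and 0.257). Those of Ltbp4, -0.153 ± 0.105 and 0.022 ± 0.106, were not called either (adjusted p = 0.587 and 0.954).

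Neither Ltbp gene was called with age. Ltbp4 differed with age by 0.17 ± 0.11 in WT and -0.17 ± 0.11 in Ercc1Δ/− mice, and Ltbp1 by 0.02 ± 0.11 and -0.24 ± 0.11 (edgeR, adjusted p from 0.24 to 0.985). The interactions, -0.34 ± 0.16 for Ltbp4 and -0.26 ± 0.15 for Ltbp1, were not called, so it was not shown that their genotype difference at 22 weeks was unlike that at 6 weeks. Between genotypes at 22 weeks AL, all Ercc1Δ/− samples lay below all WT samples for 5 of the 10 members, against 9.61% of all genes. On DR this was so for 4 of 10, against 5.2%. With age in Ercc1Δ/− mice, all 22-week samples lay below all 6-week samples for 5 of 10, against 3.38%.

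No member's level differed between the sexes at the threshold (edgeR, 0 of 10 called in 28 samples, against 0.186% of all genes). At an unadjusted p under 0.05 (edgeR) were 2 of 10, beside 966 of 12353 genes. These members were Efemp2 and Mfap4, with male minus female log2 differences of 0.14 ± 0.06 and 0.16 ± 0.06 (adjusted p = 0.531 and 0.476). DESeq2 called 0 of 10. Ltbp2, a relative of Ltbp1 that is no core member, was higher in males (0.54 ± 0.07, adjusted p = 6.36e-06).

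Members did not all vary together. Across the 28 samples, Pearson's r of log2 CPM (counts scaled to a fixed library size) was 0.86 between Eln and Fbn1, 0.87 between Eln and Mfap5, 0.82 between Eln and Mfap4 and 0.89 between Fbn1 and Mfap5. Between Eln and Ltbp4 it was 0.12 and between Mfap5 and Ltbp4 0.02, while Ltbp4 and Ltbp1 correlated at 0.77. After the mean of each group was subtracted, the values were 0.44, 0.52, 0.47 and 0.51 for the first 4 pairs, and the highest of all pairs was 0.80, between Emilin1 and Ltbp4. Samples share groups and library depth, so these are descriptions without a test.

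**Figure D4:**
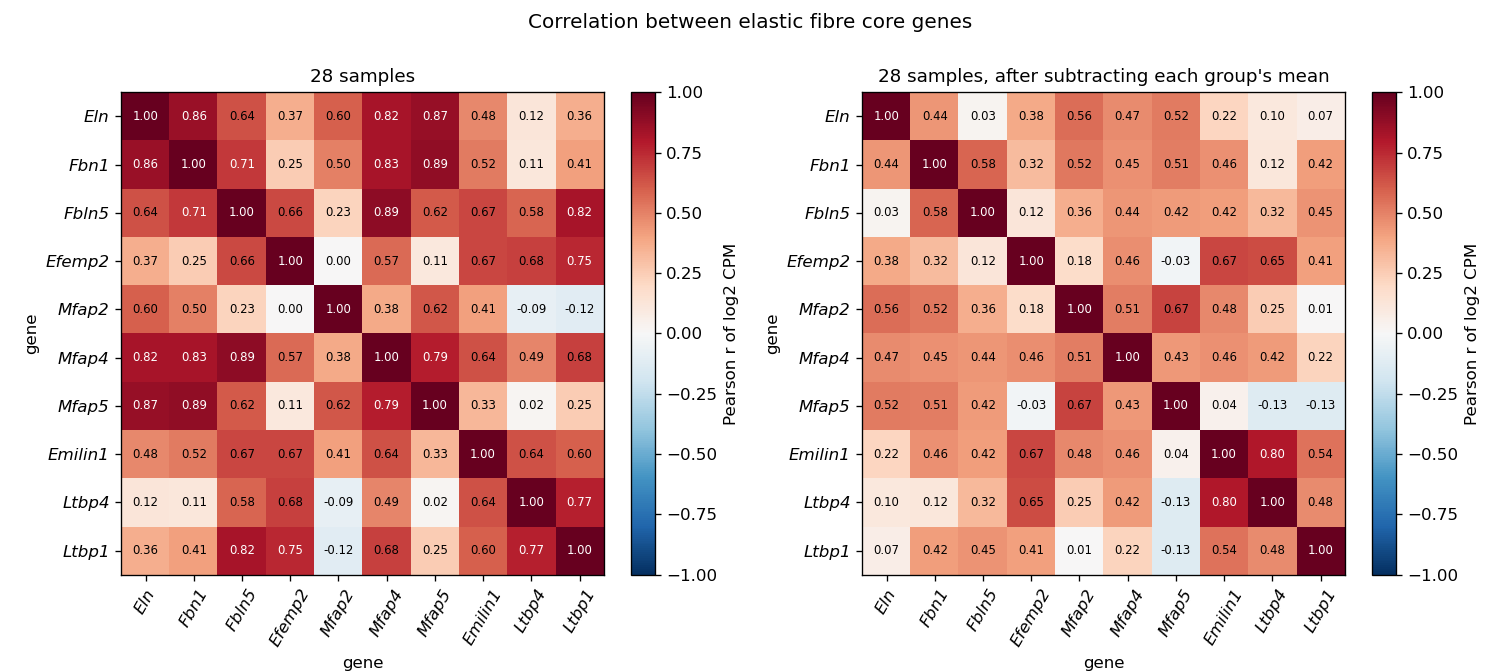
Pearson's r of log2 CPM between each pair of elastic fibre core genes (both axes) over 28 samples (left) and over the same samples after each group's mean was subtracted (right). On the left, Eln, Fbn1, Mfap4 and Mfap5 correlate with each other at up to 0.89 (Fbn1 and Mfap5), Mfap5 and Ltbp4 at 0.02, and on the right Emilin1 and Ltbp4 reach 0.80.

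Genes whose level was most like that of a member were found by Pearson's r over all 28 samples. For Eln they were C1qtnf6 (0.92), Col3a1 (0.90) and Col1a1 (0.90), the last pair encoding chains of fibrillar collagens. For Fbn1 they were Col3a1 (0.94), Col1a1 (0.92) and Pxdn (0.92), a peroxidase of the basement membrane. For Mfap4 they were Col1a2 (0.95), Cercam (0.94) and Col6a2 (0.94). Ltbp1 was closest to Kcnmb1 (0.94), a subunit of a smooth muscle potassium channel, Lpp (0.94) and Cpe (0.94). None of the 3 genes closest to any member was itself a member.

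Other genes of the elastic fibre machinery are given by list, and the shares of all genes called, given above for each comparison, apply to these lists too. Of 15 tested genes of other elastic fibre and microfibril proteins, 1 was higher and 1 lower in Ercc1Δ/− mice at 22 weeks AL, with a median log2 fold change of -0.07, against 5.87% of all genes higher and 6.16% lower. Lower was Thsd4, which promotes microfibril assembly (-1.39 ± 0.18, edgeR, adjusted p = 3.95e-05), and higher was Ltbp2 (0.37 ± 0.11, adjusted p = 0.0243). Thsd4 was also lower at 6 weeks (-0.61 ± 0.15, adjusted p = 0.0455), the only gene of that list called there, and on DR (-0.89 ± 0.10, adjusted p = 2.58e-06), where Ltbp3 and Bgn were lower too.

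Among the 5 lysyl oxidase genes, whose enzymes crosslink elastin, Loxl2 was the 1 called lower in Ercc1Δ/− mice at 22 weeks AL (-0.86 ± 0.13, edgeR, adjusted p = 0.000119), and Loxl1 on DR (-0.59 ± 0.10, adjusted p = 0.000366). With age in Ercc1Δ/− mice 3 of 5 fell, Loxl2 (-1.44 ± 0.12, adjusted p = 1.2e-07), Loxl1 (-0.68 ± 0.13, adjusted p = 0.00339) and Lox (-0.55 ± 0.15, adjusted p = 0.0323). Lox also fell in WT mice (-0.87 ± 0.15, adjusted p = 0.00894), the only gene of that list called there. DR lowered Loxl1 in Ercc1Δ/− mice (-0.49 ± 0.11, adjusted p = 0.0224).

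Of 7 tested proteases able to cut elastin, 2 were higher and 0 lower in Ercc1Δ/− mice at 22 weeks AL, against 5.87% of all genes higher, and 4 higher and 0 lower on DR, against 5.93% higher. The lysosomal cysteine protease Ctss was at 43.7 in WT and 196 in Ercc1Δ/− mice at 22 weeks AL (2.14 ± 0.25, edgeR, adjusted p = 1.32e-05), and was higher at 6 weeks (1.16 ± 0.27, adjusted p = 0.0328) and on DR (1.96 ± 0.36, adjusted p = 0.00165). The other gene at 22 weeks AL was Ctsl (0.36 ± 0.09, adjusted p = 0.00713), which on DR stood beside Mmp2 and Mmp14. With age in Ercc1Δ/− mice 1 rose and 2 fell, against 2.11% and 2.55% of all genes. Ctss rose (1.663 ± 0.235, edgeR, adjusted p = 0.000125), and Ctsk (-0.708 ± 0.115, adjusted p = 0.000426) and Mmp2 (-0.529 ± 0.139, adjusted p = 0.0277) fell. In WT mice 0 rose with age and 1 fell, Ctsk (-0.665 ± 0.111, adjusted p = 0.00753). Ctss is abundant in macrophages, and the macrophage markers given below moved in the same direction. The part of these markers in the Ctss results was not tested.

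The list for elastic fibre receptors held 9 genes, those of integrins and the enzyme genes Glb1, Ctsa and Neu1. Of these 9, 2 were lower at 6 weeks (1.13% of all genes) and 3 lower on DR (7.03%). At 22 weeks AL 2 were lower and 1 higher, the enzyme gene Ctsa (6.16% and 5.87%). Itga8 and Itga5, which pair with integrin beta chains on smooth muscle, were lower in Ercc1Δ/− mice in all 3 genotype comparisons. Itga8 was lower by -0.71 ± 0.11 at 6 weeks, -1.05 ± 0.13 at 22 weeks AL and -0.79 ± 0.09 on DR (edgeR, adjusted p = 0.00197, 1.09e-05 and 2.19e-06). Among 8 tested genes of latent TGF-beta and its activators, Tgfb2 (-0.58 ± 0.14, adjusted p = 0.00677) and Tgfb3 (-0.69 ± 0.13, adjusted p = 0.000929) were lower at 22 weeks AL and Thbs1 was higher (1.45 ± 0.38, adjusted p = 0.02). On DR 3 were lower, Tgfb2, Tgfb3 and Lrrc32, and 0 higher.

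Cell type markers differed between the same groups. The shares of all genes called, given above for each comparison, hold for the marker lists as well. Between genotypes they were 0.575% higher and 1.13% lower at 6 weeks, 5.87% and 6.16% at 22 weeks AL, and 5.93% and 7.03% on DR. The summed level of 10 smooth muscle markers, in counts per library of a fixed size (CPM), was 34509 to 40768 in WT and 18046 to 27708 in Ercc1Δ/− mice at 22 weeks AL, and 35322 to 45635 and 25276 to 27565 on DR, with no overlap on either diet. Of these markers 8 were called lower at 22 weeks AL and 9 on DR, and 3 at 6 weeks, with medians of -0.73, -0.60 and -0.38. Fbln5, Mfap4, Ltbp4 and Ltbp1 had lower levels in the same groups, and the part of the marker difference in these results was not tested.

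With age in Ercc1Δ/− mice, 1 smooth muscle marker was called lower, and the median over the 10 was -0.30, against -0.68 over the elastic fibre core genes. In the same comparison 3 of 9 macrophage markers were called higher (median 0.98) and 1 adventitial fibroblast marker higher and 2 lower. With DR in Ercc1Δ/− mice, where Efemp2 fell, 5 of 9 macrophage markers were called lower (median -0.92). The part of these markers in the members' results was not tested. The summed level of 10 adventitial fibroblast markers overlapped between genotypes at every age and diet, with 1903 to 2947 in Ercc1Δ/− and 2232 to 2869.8 in WT mice at 22 weeks AL. Within that sum markers differed in opposite directions, with Cd34 and Ly6a called higher and Pi16 and Serpinf1 lower in Ercc1Δ/− mice at 22 weeks AL, and 3 higher and 2 lower on DR. Macrophage markers summed to 423 to 800 in Ercc1Δ/− and 231 to 326 in WT mice at 22 weeks AL, and of 9 tested 6 were called higher. Their sums on DR were 323.3 to 499.3 and 166.3 to 284.1, without overlap, and 5 of 9 were called higher. On DR, 6 of 10 endothelial markers were called higher in Ercc1Δ/− mice, with sums of 949 to 1539 against 474.1 to 977.6 in WT, and cardiac muscle markers summed to 257.1 to 612.6 against 140.2 to 243 with 1 of 7 called. Adipocyte sums overlapped between the genotypes at every age and diet, with 0 of 10 markers called. Their medians were higher in Ercc1Δ/− than in WT mice, 1957 against 861 at 22 weeks AL and 2378 against 906 on DR. Above 0 were 10 of 10 adipocyte fold changes at 22 weeks AL and 9 on DR. Schwann cell markers gave no call between genotypes, and 1 of 3 tested cartilage markers was lower at 6 weeks and on DR. The filter passed 0 of 8 lymphocyte markers, and no marker of any list was at 0 in all 28 samples.

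**Figure D5:**
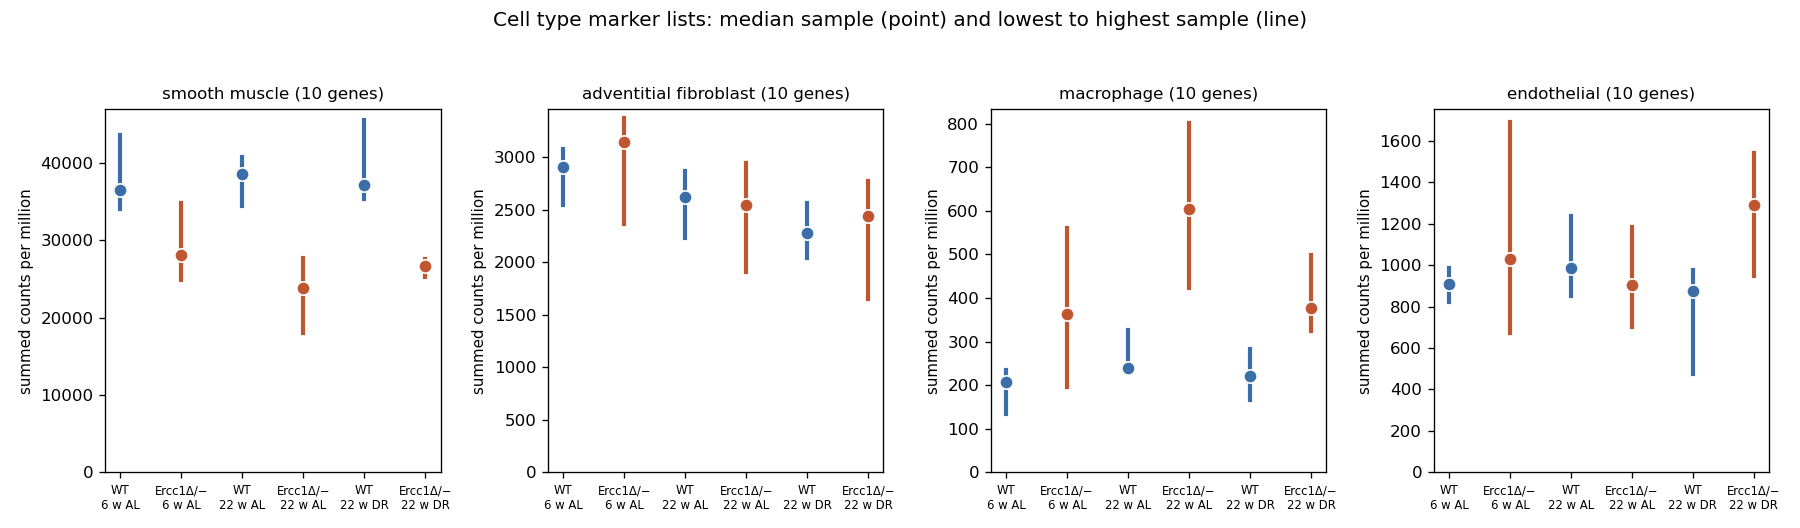
Summed CPM (vertical axes, each from 0) of 4 lists of cell type markers by group, as the median sample (point) and the range from the lowest to the highest sample (line). WT is blue and Ercc1Δ/− orange, with 4 or 5 mice per group. Smooth muscle markers do not overlap between genotypes at 22 weeks on either diet, while the sums of fibroblast markers overlap throughout.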

How the data were processed

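Aortic arch RNA of 29 mice was sequenced, 1 library a mouse. The authors removed duplicate reads by molecular identifiers (UMI-tools 1.1.2), aligned with STAR 2.7.10a to GRCm39 and counted reads over whole gene bodies with HTSeq 2.0.2, and the deposited values are these raw counts per gene. The strand setting of the counting was not given in the sources used here, so overlapping opposite-strand genes cannot be told apart from members. Such genes overlap Eln, Fbn1, Efemp2, Mfap4 and Mfap5. Reads without a gene (12.6 to 18.7% per library) were left out of library sizes. Symbols, positions and exon lengths come from the GENCODE vM39 annotation. Sample 003 (total 400410) was left out, as in the study.

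Counts were tested with edgeR 4.0.16 (TMM, quasi-likelihood F test, robust) in R 4.3.3 with group and sex as terms, over the 12353 genes that exceeded 10 counts in over 10 samples, with Benjamini-Hochberg adjustment over all of them. AL samples of both ages entered 1 fit, which gave the age comparisons and the genotype comparisons on AL. The 22-week samples of both diets entered another, which gave the diet comparisons and the genotype comparison on DR. Genotype comparisons on AL and on DR thus have different estimates of the spread. For Eln the SE was 0.315 at 22 weeks AL and 0.152 on DR. Errors of fold changes are SE and intervals are normal 95% intervals. With 4 or 5 mice per group, p-values set each difference against the spread between mice within groups. That spread was estimated over all groups of a fit, with information shared over genes. All 10 members are described, with the called genes of smallest p from each pathway list, and the 3 genes most correlated with a member for Eln and 3 further members. Members and lists were chosen with earlier results of these data known. Alternatives were DESeq2 1.42.0, RLE size factors, no filter, sample 003 added, no sex term, 1 fit of all groups, thinning to 921167 counts and leaving out each sample. edgeR's older quasi-likelihood method was added after the data were seen.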

Additional observations from a re-analysis of the deposited data

Results flagged for a closer look

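Single samples stood apart from their group in 5 of 66 group values examined, where chance gives about 1 in 20. Fbn1 was at 1683 normalized counts in Ercc1Δ/− sample 023 at 6 weeks, with the next lowest at 2093. Mfap5 was at 2094 in Ercc1Δ/− sample 027 at 6 weeks, with the next highest at 1625. Ltbp4 was at 5827 in WT sample 021 on DR, with the next lowest at 8580.1. Ltbp1 was at 2438 in Ercc1Δ/− sample 026 at 22 weeks AL, with the next highest at 2189.7. The 10 members took 1.14% of the counts of WT sample 018 at 22 weeks AL, with the next highest at 1.01%.

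The change from 6 to 22 weeks differed between the genotypes by the interaction term of edgeR for 3 members. The difference was -0.805 for Fbn1, -0.676 for Fbln5 and -0.853 for Mfap4 on the log2 scale. Leaving out 1 sample ended the call for Fbn1 in 3 of 18 fits, for Fbln5 in 13 of 18 and for Mfap4 in 0 of 18.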

How the results depend on the processing

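No paired analysis was made because each mouse gave 1 sample and the sample labels name no litter. The number of members called at 6 weeks between genotypes was 1, and it became 3 by DESeq2, 0 with sample 003 added, 2 in 1 fit of all groups, and 0 to 2 with 1 sample left out (0 without samples 002, 009, 011, 019, 024 or 027, 2 without 023). With age in WT mice it was 0, and it became 1 by DESeq2, without the filter or with sample 003 added, and 0 to 1 with 1 sample left out. For the interaction of genotype and age it was 3, 2 to 4 over the other alternatives, and 1 to 4 with 1 sample left out (1 without 004, 018 or 020, which left Mfap4). For diet in WT mice it was 1, and it became 3 by DESeq2 or without the filter, 2 after thinning, 0 with sample 003 added, without the sex term or in 1 fit of all groups, and 0 to 3 with 1 sample left out. For the interaction of genotype and diet it was 0, and 1 without the filter (Fbn1). The Eln difference between genotypes at 22 weeks AL turned to 0.015 without WT sample 018, over a range of -0.287 to 0.015, and the Eln diet difference in WT mice to 0.010 with sample 003 added. The cause was not tested. The counts for the other comparisons stayed within 4 to 5 (genotype at 22 weeks AL), 5 (age in Ercc1Δ/− mice), 1 (diet in Ercc1Δ/− mice), 5 to 6 (genotype on DR) and 0 (sex). Genes called in all, from the lowest to the highest over all alternatives and left-out samples, ran from 101 to 378 at 6 weeks (211 as reported), 810 to 1685 at 22 weeks AL (1486), 8 to 106 with age in WT (29), 322 to 748 with age in Ercc1Δ/− mice (576), 55 to 197 for the genotype by age interaction (104), 46 to 310 for diet in WT (161), 78 to 348 for diet in Ercc1Δ/− mice (203), 987 to 1755 on DR (1601), 2 to 43 for the genotype by diet interaction (12) and 18 to 52 for sex (23). Mfap2, with as few as 6 raw counts, is limited by depth.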

Other observations

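Sample 003, the WT AL female of 22 weeks with a total of 400410 counts, entered only the values given with sample 003 added. The study left it out for its low read counts and because its expression profile diverged. On the same scale it was at 6576 normalized counts for Eln and 729.6 for Fbn1, both below the other WT samples of its group, and at 4456 for Fbln5, within their range. Its Mfap4 was 3461, its Ltbp4 7207 and its Ltbp1 2780.3, each below the other 4.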
